A study of Mus musculus with 4 samples.

Results

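Neat1 is a long noncoding RNA, and its partners are the RNAs that were joined to it in chimeric reads. The partners were taken from a deposited table of RNA pairs by splitting each pair name and keeping every pair with Neat1 on either side. This gave 1154 of 56636 pairs, of which 1 joined Neat1 to itself and 1153 joined it to another RNA, so that 1153 of the 13318 RNAs in the table were partners. Neat1 was chosen by its counts in these same libraries, which earlier work had shown to be lower after differentiation, so that fall is given as a description without a test.

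The study asked how contacts between RNAs change when mouse spermatogonial stem cells differentiate. Contacts were measured by RIC-seq, in which RNA and protein are fixed in the cell with formaldehyde, the RNA is cut, neighbouring ends are ligated in place and the joined (chimeric) fragments are sequenced. There were 2 libraries labelled differentiation and 2 control libraries labelled wild type, all described as spermatogonial stem cells. The labels name no strain, age, inducing agent or duration. They also do not say that the libraries came from separate cultures, so the p-values below measure only how these libraries vary, and that variation may be technical. With 2 libraries a group, differentiation 1 and 2 and control 1 and 2 are named singly throughout.

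Neat1 is transcribed next to Malat1 and is retained in the nucleus. It is the scaffold of paraspeckles, nuclear bodies that form around its long isoform and hold RNA-binding proteins such as Nono and Sfpq. Paraspeckles are known to retain some RNAs and proteins in the nucleus, and in human cells NEAT1 has been mapped to the chromatin of many transcribed genes. In the reference annotation Neat1 lay on chromosome 19 from 5824708 to 5845480 (build GRCm38). Chimeric reads cannot tell its short and long isoforms apart in this table, because they were counted per gene.

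Neat1 took part in a several-fold smaller share of all contacts in the differentiation libraries. Its total count was 12574 in differentiation 1 and 13427 in differentiation 2, against 71229 in control 1 and 94158 in control 2. These counts made up 1.59% and 1.16% of all chimeric reads in the differentiation libraries and 5.89% and 6.73% in the controls. Both differentiation libraries lay below both controls. Pairs of Neat1 with itself held 7615 and 7785 counts in differentiation and 43520 and 57347 in control. Pairs with other RNAs, called its contacts below, held 4959 and 5642 counts in differentiation, against 27709 and 36811 in control. Scaled to CPM (counts scaled to library size, after TMM scaling), its contacts averaged 6226 ± 1163 CPM in differentiation and 24879 ± 2159 CPM in control (SD, n = 2 each), a level 4.00-fold higher in control. The total counts of the 4 libraries were 793129 and 1155923 in differentiation and 1209031 and 1400011 in control.

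**Figure D1:**
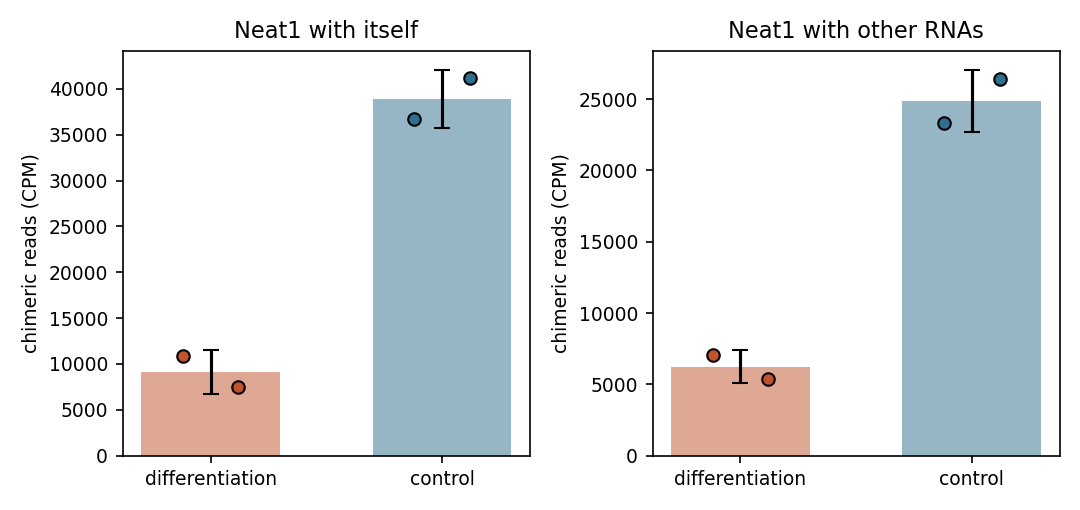
Chimeric reads of Neat1 in CPM, with itself (left) and with other RNAs (right). Bars are group means, error bars the SD of 2 libraries and points the libraries, and in both panels the differentiation points lie below the control points.

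The balance between contacts inside Neat1 and contacts with other RNAs differed little among the libraries. Pairs of Neat1 with itself made up 60.6% and 58.0% of its counts in differentiation and 61.1% and 60.9% in control. A count per RNA cannot tell fewer contacts of each Neat1 molecule from fewer Neat1 molecules or fewer cells that contain it. No Neat1 RNA level independent of the chimeric reads was analysed here.

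Most Neat1 pairs rested on few counts. The median partner had 28 counts summed over the 4 libraries, 367 partners had under 20, and the range ran from 4 to 4663. The table listed a pair only where every library had at least 1 count, so no pair could be seen to vanish. Of the partners, 546 stood at 1 count in at least 1 differentiation library and 88 in at least 1 control library. Partners with few control counts showed smaller changes. Control counts also enter the change, and every listed pair had at least 1 count in each differentiation library. Grouping by control counts thus favours small falls at few counts and large falls at many, so nothing is read from this order. The 207 partners with 2 to 9 control counts had a median log2 change of -0.01, the 410 with 20 to 49 counts one of -2.00, and the 225 with 50 to 199 counts one of -2.49. The 28 partners with 200 or more control counts, none of which stood at 1 count in a differentiation library, had a median of -2.35.

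Over all pairs of the table, edgeR tested 801 of the 1153 partners, and the other 352 had too few counts for a test. Of the 801, 268 were lower in differentiation at an adjusted p under 0.05 and 0 were higher, with a median log2 change of -1.99. Among all tested pairs of the table, 2.40% fell and 2.85% rose, and of pairs of different RNAs 2.25% fell, or 1.30% without those of Neat1. Because Neat1 was chosen for this fall, nothing is read from its count of calls. In CPM, 828 partners were lower in both differentiation libraries than in both controls, 28 were higher and 297 overlapped. The same comparison over all pairs of different RNAs gave 21.0% lower and 22.2% higher.

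The 9 partners with the most Neat1 contacts fell into 2 kinds. Gm42418, Gm26917, Malat1 and Slc9a9 had many other contacts, while Gm27533, Gm27505, Gm28006, Capn1 and Brinp3, described further on, had few contacts outside Neat1. The largest count was that of Gm42418, which the reference table lists as Rn18s-rs5, a pseudogene related to ribosomal RNA. It had 311 and 371 counts with Neat1 in differentiation, against 1697 and 2284 in control. Gm26917, which the reference table did not name, had 158 and 258 counts in differentiation, against 1349 and 1822 in control. Malat1, the long noncoding RNA of nuclear speckles encoded beside Neat1, had 192 and 225 counts in differentiation, against 934 and 1443 in control. Slc9a9, which encodes an endosomal sodium and proton exchanger, had 160 and 217 counts in differentiation, against 1200 and 1083 in control. In each of these pairs both differentiation libraries lay below both controls. Their changes relative to all contacts of Neat1 were small: log2 0.06 (SE 0.17) for Gm42418, -0.34 (SE 0.20) for Gm26917, 0.11 (SE 0.19) for Malat1 and -0.04 (SE 0.22) for Slc9a9, with edgeR adjusted p of 0.906, 0.387, 0.829 and 0.954. The actin-binding Shroom3, the long noncoding Gm12153 and Rmrp, the RNA of the ribonuclease MRP, had fewer, with 765, 421 and 430 summed counts.

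A few partners held a large part of all contacts of Neat1. The 10 partners with the largest counts took 29.7% and 31.3% of its contacts in differentiation and 35.6% and 33.8% in control. The 100 largest took 44.9% and 47.7% in differentiation and 57.3% and 55.8% in control. Both measures were lower in both differentiation libraries, where the smaller pairs could not fall below 1 count. The partners were ranked by counts summed over the 4 libraries, most of which came from the controls. That ranking favours a larger share in control, so nothing is read from the difference. The number of counts a partner had with Neat1 followed the number it had with all other RNAs, with a Spearman rho of 0.80 across the 1153 partners. Partners are not independent samples, and both counts depend on the RNA's abundance, so this is a description.

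By class, 1037 of the 1153 partners were protein coding, 19 long noncoding, 26 small nucleolar and 9 small nuclear. Another 5 were pseudogenes, 8 were of other classes and 49 had no entry in the reference table. Protein-coding partners took 65.5% and 62.5% of the contacts of Neat1 in differentiation and 62.1% and 61.7% in control. Long noncoding partners took 5.57% and 6.15% in differentiation and 6.37% and 6.56% in control. Small RNAs of all kinds took 4.34% and 5.18% in differentiation and 5.50% and 5.45% in control. Among them the small nuclear class ran the other way, at 2.30% and 2.00% in differentiation and 1.91% and 1.95% in control. These groups of libraries did not overlap, but the exact two-sided permutation p was 0.333 in each case, the smallest that 2 against 2 libraries allow.

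The direction of the class shares depended on which partners were counted. Over the 106 partners with at least 100 summed counts, a limit added after the data were seen, protein-coding partners took 33.2% and 31.7% in differentiation and 42.0% and 40.0% in control. Long noncoding partners of that size took 10.7% and 11.2% in differentiation and 9.84% and 10.5% in control. For both classes the difference ran opposite to that over all partners. Most summed counts came from the controls, so this limit favours partners with high control counts. Nothing is read from the reversal. Small RNAs of that size took 6.89% and 8.21% in differentiation and 7.11% and 6.97% in control, which overlapped.

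**Figure D2:**
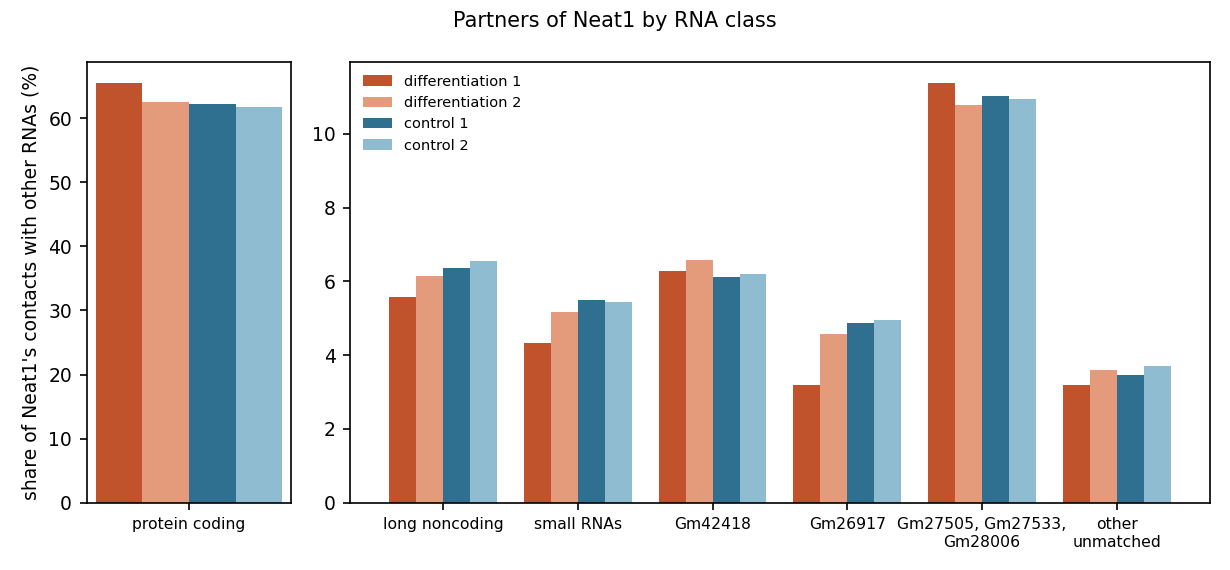
Share of the contacts of Neat1 with other RNAs (%) that fell on each class of partner, in each library. Protein-coding partners are drawn on a scale of their own, and the protein-coding bars are taller in both differentiation libraries while the long noncoding and small RNA bars are shorter, with all partners counted.

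Some small RNA classes were partners of Neat1 more often than protein-coding RNAs. Of the listed small nucleolar RNAs, 17.8% were partners, and of the small nuclear class, which includes Rn7sk and the U3 genes, 19.1%. Of the protein-coding RNAs 9.58% were partners, of the long noncoding 4.82% and of the pseudogenes 0.46%. No test was made of these shares, which depend on abundance. Small nucleolar partners took 1.13% and 1.72% of the contacts of Neat1 in differentiation and 2.21% and 2.16% in control. Neat1 held a median of 3.70% of the contact total of a small nucleolar partner in differentiation and 13.7% in control.

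For each partner, the share of its own contact total that Neat1 held was computed over the 1058 partners with at least 20 counts in every library. The contact total of a partner took in its pairs with itself. The median share was 1.54% and 1.10% in differentiation, against 3.90% and 4.57% in control. Neat1 held over 10% of the total of 27 and 12 partners in differentiation and of 144 and 180 in control. The share was lower in both differentiation libraries than in both controls for 817 of the 1058 partners, or 77.2%, higher for 6 and overlapping for 235. For all pairs of the table, 20.3% of such shares were lower and 20.2% higher. This shift follows from the lower counts of Neat1, for which it was chosen. The 6 partners with a higher share were Trpm7, Pcdhgc3, Rbbp4, Atp6v0a1, Hn1 and Pla2g4a, and none had over 7 counts with Neat1 in any library.

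The order of partners by share was partly kept between groups. The Spearman rho of the share between libraries of one group was 0.69 in differentiation and 0.73 in control, and between the mean shares of differentiation and control it was 0.71. Over the 106 partners with at least 100 summed counts these values were 0.78, 0.96 and 0.84. They are given as a description, since partners share libraries and depth.

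A small set of partners was seen almost wholly with Neat1. Cdc42ep2, which encodes an effector of the small GTPase Cdc42 that organises actin, had no other pair in the table: all of its counts, 6 and 3 in differentiation and 152 and 153 in control, were with Neat1. Gm27533, Gm27505 and Gm28006, which the reference table did not name, had 5, 6 and 6 pairs each. Neat1 held 90.0% and 91.1% of the total of Gm27533 in differentiation, against 92.6% and 92.8% in control. For Gm27505 it held 93.6% and 84.1% in differentiation, against 92.4% and 93.3% in control. For Gm28006 it held 89.1% and 82.8% in differentiation, against 92.2% and 90.2% in control. Together these 3 RNAs took 11.4% and 10.8% of the contacts of Neat1 in differentiation and 11.0% and 11.0% in control, so that the groups overlapped. Without coordinates for the 3 it could not be told whether they overlap Neat1, in which case their pairs would be contacts within Neat1.

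Capn1 and Brinp3 also had a high share of their contacts with Neat1. Capn1, the catalytic subunit of a calcium-activated protease, is encoded on chromosome 19, 143 kb from Neat1, at 5988545 to 6015825. It had 29 and 15 counts with Neat1 in differentiation, against 657 and 730 in control. Neat1 held 63.0% (Wilson 95% interval 48.6% to 75.5%) and 60.0% (40.7% to 76.6%) of its total in differentiation, and 86.3% (83.7% to 88.6%) and 87.0% (84.6% to 89.1%) in control. Brinp3, a member of a family induced by retinoic acid and BMP in neurons, is on chromosome 1 at 146495629 to 146902472. It had 18 and 24 counts with Neat1 in differentiation, against 638 and 710 in control, which was 43.9% and 72.7% of its total in differentiation and 86.3% and 88.3% in control. Its contacts with itself, 17 and 3 counts in differentiation and 12 and 8 in control, weigh on these shares: of its contacts with other RNAs Neat1 held 75% and 80% in differentiation and 87.8% and 89.2% in control. The counts of Capn1 and Brinp3 with Neat1 were close to each other in the controls, and both RNAs were also paired with each other, at 4 and 1 counts in differentiation and 83 and 79 in control. Whether the same reads were counted for both could not be told from the table. Intervals here cover counting error only.

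**Figure D3:**
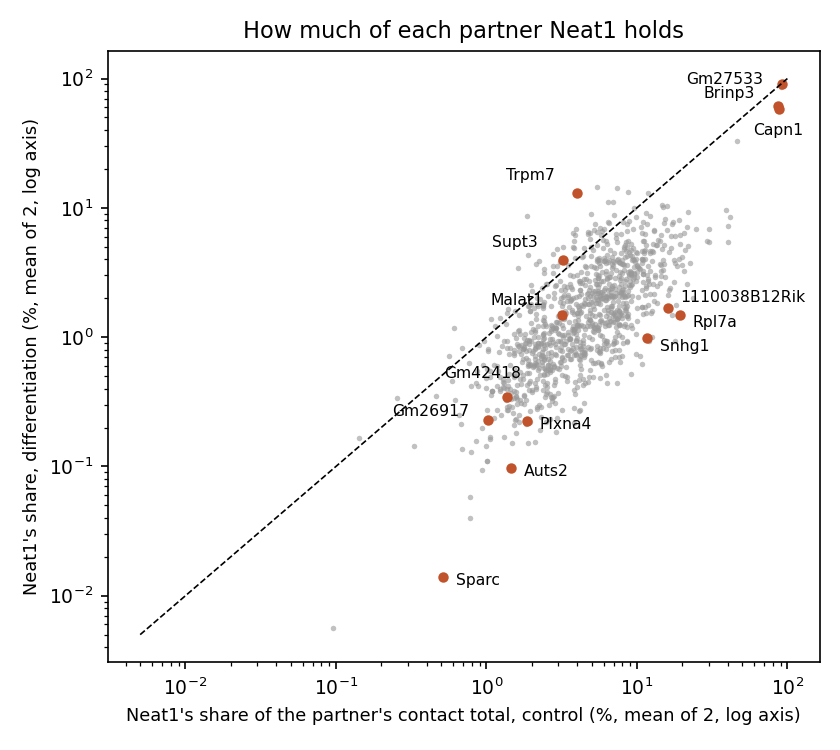
Share of each partner's contact total held by Neat1 (%, mean of 2 libraries, log axes) in differentiation against control, for 1058 partners with at least 20 counts in every library. Points below the dashed line of equality have a lower share in differentiation, and named partners are in colour.

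At the other end were abundant RNAs of which Neat1 held very little. The observed count was set against that expected from the totals of both RNAs in pairs of different RNAs, over partners with at least 20 summed counts. The lowest ratios belonged to Gm10800, Vmp1, Eef1a1, Rpph1 and Gm26917. Vmp1, a membrane protein of autophagy, had 1 and 1 counts with Neat1 in differentiation and 12 and 12 in control. Eef1a1, the translation elongation factor, had 2 and 1 counts in differentiation and 14 and 15 in control. Rpph1, the RNA of ribonuclease P, had 4 and 15 counts in differentiation and 38 and 63 in control. The highest ratios were those of Cdc42ep2, Gm27533, Gm27505, Gm28006 and Brinp3.

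To ask whether single partners moved differently from Neat1 as a whole, the Neat1 pairs were refitted with the total of its contacts in each library as the scale. This scale takes out the overall fall, but not the effect of the lower limit of 1 count. Pairs with few control counts could not fall as far as the total. Pairs with many control counts therefore tended to lie below it, and the relative change is not free of the overall fall. Of 801 partners, 8 were lower and 2 were higher relative to that total at an adjusted p under 0.05 in edgeR's quasi-likelihood test, against 1.41% of all pairs in that fit that fell and 2.58% that rose. At an unadjusted p under 0.05 there were 100. The share of partners called was thus below that of pairs in general.

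Brinp3, Capn1 and Cdc42ep2 had the smallest adjusted p-values among the 8. Brinp3 had a relative log2 change of -2.42 (SE 0.26, adjusted p = 4.5e-05), so that its part of the contacts of Neat1 was 5.27 times larger in control. Capn1 changed by -2.37 (SE 0.30, adjusted p = 2.1e-04) and Cdc42ep2 by -2.49 (SE 0.46, adjusted p = 0.0044). In all 3 pairs the differentiation counts lay far below the control counts given above. These 3 were the called partners that passed the threshold under every alternative tried, including each library left out in turn.

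The other 5 partners that fell further were Auts2, Plxna4, Rpl7a, Snhg1 and 1110038B12Rik. Auts2, a regulator of neuronal development that binds Polycomb proteins, had 1 and 3 counts with Neat1 in differentiation, against 66 and 104 in control (relative log2 change -2.77, SE 0.59, adjusted p = 0.0134). Plxna4, a receptor of semaphorins, had 2 and 3 counts in differentiation, against 54 and 85 in control (-2.16, adjusted p = 0.0423). Rpl7a, a protein of the large ribosomal subunit, had 3 and 3 counts in differentiation, against 75 and 86 in control (-2.14, adjusted p = 0.0304). The differentiation counts of these 3 stood at or near the lower limit of 1. Snhg1, a long noncoding host of small nucleolar RNAs, had 4 and 10 counts in differentiation, against 167 and 133 in control (-1.86, adjusted p = 0.0245). 1110038B12Rik, a long noncoding RNA, had 5 and 5 counts in differentiation, against 86 and 115 in control (-1.71, adjusted p = 0.0409).

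These 5 calls had less support, while the size of the change stayed similar for most. Auts2 missed the threshold without control 2 (log2 change -2.63, adjusted p = 0.0558) and Snhg1 without control 1 (-1.46, adjusted p = 0.159). Plxna4 missed it without any one of the 4 libraries, at changes of -2.39 to -2.00, and so did 1110038B12Rik, at -1.81 to -1.62. Rpl7a missed it without differentiation 2, control 1 or control 2, at -2.24 to -2.03. Trpm7, a channel and kinase that carries magnesium, and Supt3, a subunit of the SAGA complex, were higher relative to the total. Trpm7 had 7 and 5 counts in differentiation, against 5 and 2 in control (relative log2 change 3.29, adjusted p = 0.0205), and Supt3 had 9 and 6 counts, against 7 and 6 in control (2.77, adjusted p = 0.0266). Both lie in the range of few control counts where the lower limit of 1 keeps a pair from falling. Both calls were lost without differentiation 1 (adjusted p = 0.146 and 0.128) or without control 2 (adjusted p = 0.139 and 0.153), and a stricter count filter removed both pairs before testing.

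**Figure D4:**
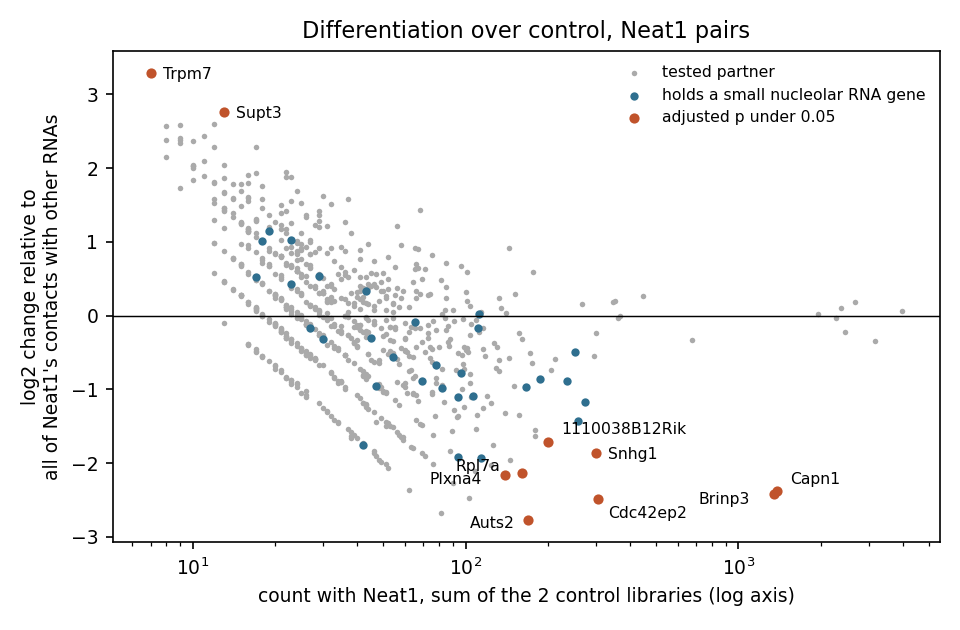
Change of each tested partner relative to all contacts of Neat1 (log2, differentiation over control) against its summed control count (log axis). The 10 called partners are named, and the slanted lower edge at the left marks pairs at 1 or few counts in differentiation.

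Several partners in which Neat1 contacts fell further carry small nucleolar RNA genes within their span. This group was chosen after its values were seen, and is described without a test. It was limited to partners whose span held a named small nucleolar RNA gene, so any other hosts count among the other partners. It held 33 partners, 32 of them tested, and Rpl7a was not among them. Their part of the contacts of Neat1 was 2.76% and 3.14% in differentiation, against 5.19% and 5.13% in control. The median relative log2 change was -0.73, with 24 of 32 below 0, against a median of 0.07 over the 694 other tested protein-coding or long noncoding partners. With at least 50 control counts, 19 of 20 hosts lay below 0 (median -0.93), and so did 142 of 195 other partners (median -0.45). That limit was set on the control counts, where Neat1 was high, so it favours values below 0 in both sets. Nothing is read from it. Only Snhg1 and 1110038B12Rik of the group passed the threshold.

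Named members of this group include translation genes. Gas5, a long noncoding host, had 5 and 11 counts with Neat1 in differentiation, against 118 and 141 in control (relative log2 change -1.42, SE 0.41, adjusted p = 0.0597). Rps3, a protein of the small ribosomal subunit named in the title of the study, had 2 and 2 counts in differentiation, against 36 and 58 in control (-1.92, adjusted p = 0.113). Neither passed the threshold, although in both the differentiation counts lay below the control counts. Snord42a, a small nucleolar RNA, had 3 and 2 counts in differentiation, against 24 and 42 in control. It lies within the span of Rpl23a, itself a partner, and reads over such nested genes may have been counted for either. The neighbouring genes Rpl13a and Flt3l had the same 4 counts with Neat1 (5 and 15 in differentiation, 119 and 154 in control). In all, 51 of the 786 partners with at least 20 summed counts had the same 4 counts as another partner.

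The other contacts of the partners, with every Neat1 pair removed, gave a measure that holds no count of Neat1. The measure also held the pairs of an RNA with itself. It shows whether an RNA that touched Neat1 was also seen less outside Neat1, with itself or with other RNAs. Of 1147 partners tested, 230 fell (20.1%) and 48 rose (4.18%), with a median log2 change of -0.26. Over all 10988 RNAs tested in the same edgeR fit, 6.13% fell and 5.40% rose. The 9841 RNAs that were not partners had a median of 0.04. Partners had more counts than other RNAs, with a median of 817 summed counts against 102, and calls rise with counts. Among RNAs with 2000 or more summed counts, 35.9% of 276 partners fell and 6.16% rose, against 21.6% and 12.5% of 176 RNAs that were not partners.

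Fewer falls were called when a control library was left out, while the sizes of change moved little in partners refitted singly. The log2 change of Malat1 was -1.19 without control 1 and -0.93 without control 2, and that of Snhg1 -0.56 and -0.44. Such a fit takes its spread from the other group alone. Without control 2, 38 partners fell and 3 rose, and without control 1, 113 fell and 13 rose, while without differentiation 1, 298 fell and 117 rose. The contact totals of RNAs are linked, since a pair of 2 RNAs enters both totals. Removing the pairs of Malat1 as well, an alternative added after the data were seen, left 216 partners that fell and 48 that rose.

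**Figure D5:**
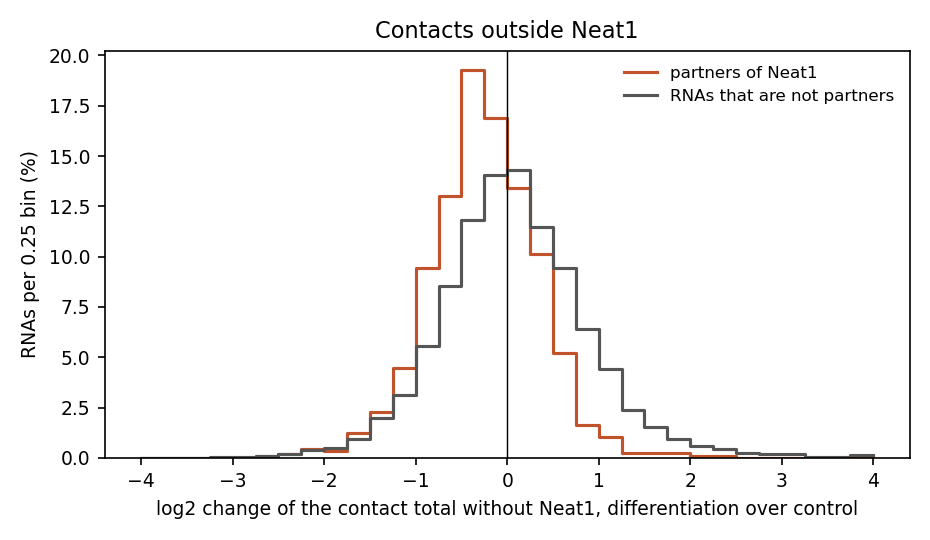
Log2 change of the contact total without Neat1 pairs, differentiation over control, as the percentage of RNAs in each bin of 0.25. The 1147 partners are centred below 0 (median -0.26) and the 9841 other RNAs near 0 (median 0.04).

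For the partners named above, the change with Neat1 could be set beside the change in their other contacts. These include pairs of an RNA with itself, which for Auts2 were 1038 and 1206 counts in differentiation, against 3122 and 4043 in control. Brinp3 had 23 and 9 other counts in differentiation, against 101 and 94 in control (log2 change -2.26, adjusted p = 0.00704), and Capn1 had 17 and 10, against 104 and 109 (-2.65, adjusted p = 0.00112). Most of these counts in control were the pair of Brinp3 with Capn1 itself, at 83 and 79, against 4 and 1 in differentiation. That pair enters both totals, so the 2 falls are not separate, and no fit was made without it. The pair of Brinp3 with itself, at 17 and 3 counts in differentiation and 12 and 8 in control, overlapped between groups. The pair of Capn1 with Malat1 had 7 and 4 counts in differentiation, against 15 and 27 in control. The call for Brinp3 was lost without control 2 (adjusted p = 0.101). Auts2 (-1.20, adjusted p = 9.1e-04) and Plxna4 (-1.39, adjusted p = 3.9e-04) also fell in their other contacts, Auts2 not without control 2 (adjusted p = 0.0601). The other contacts of Snhg1 changed by -0.49 (adjusted p = 0.0579), of Gas5 by -0.44 (adjusted p = 0.0872) and of Rpl7a by -0.43 (adjusted p = 0.132), all 3 short of the threshold. For Snhg1 this was 551 and 792 counts in differentiation, against 1020 and 1282 in control. Trpm7 (-0.57, adjusted p = 0.22) and Supt3 (0.29, adjusted p = 0.338) did not pass either.

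Malat1, whose own contacts without Neat1 fell (log2 -1.06, SE 0.15, adjusted p = 0.00118, lost without control 2 at an adjusted p of 0.11), offers a comparison for Neat1. Malat1 had 2181 partners in the table. The 633 RNAs that were partners of both made up 54.9% of the partners of Neat1 and 29.0% of those of Malat1. Over these shared partners the ratio of Neat1 counts to Malat1 counts was 0.489 and 0.413 in differentiation, against 1.08 and 1.06 in control. The ratio was lower in both differentiation libraries. Neat1 was chosen for its lower counts there, so the choice favoured this direction, and the ratio is given as a description. Over the 609 shared partners with enough counts, the median share held by Neat1 was 1.37% and 0.87% in differentiation, against 3.51% and 4.08% in control. The median share held by Malat1 was 2.79% and 2.17% in differentiation, against 4.24% and 5.32% in control.

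Among RNAs that shared at least 100 partners with Neat1, those whose counts over shared partners ranked most like those of Neat1 were Hspa8, Gm26917 and Gm42418. Hspa8, a constitutive heat shock protein, shared 188 partners with Neat1 (Spearman rho 0.81), Gm26917 shared 1103 (rho 0.79) and Gm42418 shared 1111 (rho 0.77). Malat1 came below them at 0.75. These values are across partners in the same libraries and reflect the abundance of the partners too.

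Neat1 had more partners on its own chromosome than the table as a whole. Of the 1104 partners with a location, 78 (7.07%) were on chromosome 19, against 3.45% of all located RNAs with a pair of different RNAs and 4.54% of the located partners of Malat1. Within 1 Mb of Neat1, 20 of the 62 listed RNAs (32.3%) were partners, against 1153 of the 13318 RNAs in the whole table. These 20 took 6.21% and 5.76% of the contacts of Neat1 in differentiation and 7.28% and 7.31% in control. Of the 13 tested, 2 (Capn1 and Cdc42ep2) fell further than Neat1 as a whole, against 8 of all 801 tested partners, these 2 included. The median relative log2 change of the 13 was 0.18. The nearest were Frmd8, 5.49 kb away, with 16 and 6 counts in differentiation and 25 and 60 in control, and Malat1, 22.0 kb away. Pola2, a subunit of DNA polymerase alpha, had 7 and 13 counts in differentiation and 15 and 52 in control, which was 29.2% and 36.1% of its total in differentiation and 28.8% and 63.4% in control, so that the groups overlapped. Protein-coding partners were also long genes, with a median span of 88.3 kb against 30.0 kb for other protein-coding RNAs.

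Gene lists drawn up for this tissue were read against the table as a whole, where 1153 of 13318 RNAs, and 9.58% of the protein-coding ones, were partners of Neat1. Of 34 genes for paraspeckle proteins 33 were listed and 6 were partners. Caprin1, an RNA-binding protein, had 1 and 2 counts with Neat1 in differentiation, against 10 and 22 in control. Safb2, a scaffold attachment factor, had 1 and 1 counts in differentiation, against 8 and 15 in control. Of these 6 only 4 had enough counts for the relative test, and none passed it. None of the 32 paraspeckle genes tested in their other contacts passed the threshold there. Of 24 genes for nuclear speckles and splicing 4 were partners, led by Srrm2, with 4 and 4 counts in differentiation and 27 and 39 in control. Rps3 was the one partner among the 3 RNAs in the title of the study: Zhx3 and Gm16751 were listed in the table but not with Neat1. No partner was found among 11 listed self-renewal genes or 9 listed genes of differentiating spermatogonia. Meiotic genes gave 3 partners, Tex15, Sycp2 and Smc1b, with at most 12 summed counts. Of 31 small ribosomal protein genes 6 were partners, and of 27 tested 6 rose in their other contacts and 0 fell. Of 23 nuclear long noncoding RNAs 15 were listed and 3, Malat1, Snhg1 and Gas5, were partners, and 6 of the 15 fell in their other contacts. Over all 10988 RNAs tested, 6.13% fell and 5.40% rose in their other contacts.

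Some lists of germ and somatic cell markers differed between the groups in their other contacts, and others did not. The calls stand beside 6.13% that fell and 5.40% that rose over all 10988 RNAs tested. The self-renewal genes summed to 502 and 495 CPM in differentiation, against 1242 and 1447 CPM in control, and 4 of 9 tested fell, with a median log2 change of -1.11 against 0.01 over all RNAs tested. The genes of differentiating spermatogonia summed to 134 and 123 CPM in differentiation, against 162 and 161 CPM in control, and of 7 tested 2 fell and 0 rose (median 0.41). The meiotic genes summed to 875 and 1106 CPM in differentiation, against 360 and 337 CPM in control, and 6 of 12 tested rose (median 1.23). Sertoli cell markers summed to 857 and 838 CPM in differentiation, against 1584 and 1693 CPM in control, and 5 of 12 tested fell (median -1.13), while Amh, Rhox5 and Rhox8 were not listed. Fibroblast and feeder markers summed to 7160 and 7884 CPM in differentiation, against 7159 and 6840 CPM in control. Of 14 tested 4 fell and 1 rose (median -0.45). Most of this sum came from Sparc, with contact totals of 5723 and 9505 counts in differentiation and 7358 and 8230 in control. Leydig and peritubular markers summed to 256 and 259 CPM in differentiation and 241 and 244 CPM in control, with 3 partners and no call among 6 tested. Of 10 immune markers 3 were listed and none was a partner. The Sertoli markers Wt1 and Tjp1 and 4 fibroblast markers, Sparc and Col1a1 among them, were partners of Neat1. Sparc, a matrix protein, had 1 and 1 counts with Neat1 in differentiation, against 32 and 49 in control. The part of cell composition in the lower contacts of Neat1 was not tested.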

How the data were processed

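The deposited table held raw counts of chimeric reads per RNA pair, made by the authors. STAR and build GRCm38 are named per the submitters' processing notes, with no role. The rules for duplicates and overlapping genes are not given in the sources used here. Only pairs with at least 1 count in every library were listed, so totals are not sequencing depth. Names were matched to a RefSeq table of GRCm38.p6: 1076 partners by symbol, 28 by synonym.

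edgeR 4.0.16 (R 4.3.3; TMM, filterByExpr minimum count 5 and total 10, two-sided quasi-likelihood test, Benjamini-Hochberg over all tested features) was fitted to all pairs, to all pairs with Neat1 pairs scaled to its contacts, and to contact totals without Neat1. The coefficient of variation was 24.9%, 24.9% and 18.8%. The scripts were tested on simulated data. The members and lists were chosen with earlier results of these data known. Some partners that met the rule are not reported here. Named partners were those with the most counts, the largest shares, relative calls, extreme observed over expected counts, list members, long noncoding and small RNAs, neighbours within 1 Mb and RNAs of like ranking.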

Additional observations from a re-analysis of the deposited data

How the results depend on the processing

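The labels give both groups the replicate numbers 1 and 2 and do not say that same-numbered libraries belong together. Same-numbered libraries correlated by 0.0194 in their deviations from the group means. With 2 libraries a group this is a single value, and it cannot exclude a shared batch or culture. With the replicate block, 344 Neat1 pairs were lower, 13 partners were lower and 7 higher relative to all contacts of Neat1, and 273 partners fell and 74 rose in other contacts. Leaving out each library in turn gave 155 to 314 lower Neat1 pairs, 4 to 10 partners lower and 1 to 7 higher in relative terms, and 38 to 298 that fell and 3 to 117 that rose in other contacts. Left-out fits keep the pairs tested with all 4 libraries and assume that a lone library varies like the other group. The relative counts also moved with the filter and scale: 13 lower and 11 higher with no filter, 13 lower and 0 higher with a default filter, and 19 lower with TMM over the Neat1 pairs. Without its 10 largest partners, the long noncoding share differed by -1.55 percentage points and the small RNA share by -1.53. With partners of at least 100 counts, a limit passed mainly through control counts, the differences were -8.54 (protein coding), 0.81 (long noncoding) and 0.51 (small RNAs). Of the 10 partners called in relative terms and the named genes whose other contacts were refitted, none changed direction under these alternatives; other named partners were not refitted. The causes were not tested. With 2 libraries a group and few counts a pair, changes of most single partners were not detectable at this depth.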

Other observations

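Among the partners, other contacts changed strongly, with no overlap between groups, in several genes picked after their values were seen. Vegfa, the growth factor of blood vessels, had 77.2 and 56.6 CPM outside Neat1 in differentiation, against 301 and 430 CPM in control (edgeR log2 change -2.46, SE 0.23, adjusted p = 7.4e-05). The nuclear receptor gene Rora had 124 and 113 CPM in differentiation, against 479 and 490 CPM in control (log2 change -2.04). The alpha-catenin gene Ctnna2 had 354 and 289 CPM in differentiation, against 1228 and 1402 CPM in control (log2 change -2.03).

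In the opposite direction, Smc1b, a cohesin subunit of meiosis, had 101 and 148 CPM outside Neat1 in differentiation, against 26.9 and 25.6 CPM in control (log2 change 2.25, SE 0.25). All 4 genes kept their calls with each library left out in turn.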
